A study of Mus musculus with 6 samples.

Results

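The cell cycle inhibitor genes of the INK4 and CIP/KIP families were examined together with the genes for p53, its ligase Mdm2 and the retinoblastoma proteins. The 10 genes, *Cdkn2a*, *Cdkn2b*, *Cdkn2c*, *Cdkn2d*, *Cdkn1a*, *Cdkn1b*, *Trp53*, *Mdm2*, *Rb1* and *Rbl1*, were taken by symbol from the 24982 genes listed in each library. All 10 passed the filter on low values, which left 12409 genes to be tested by asking for 3 or more libraries with normalized coverage of 0.5 or above. RNA-seq compared 3 libraries of KSFM-Ca2+ cells with 3 libraries of DKSFM cells, which asks how these genes differ between a line and its adapted descendant. KSFM-Ca2+ cells are a murine keratinocyte line of strain C57BL/6, obtained from neonatal skin and kept in a low-calcium keratinocyte serum-free medium. DKSFM cells are descendants of that line that were adapted to, and then cultured in, a defined keratinocyte medium. By the paper's measurement this medium holds more calcium than the first. Neither line received a treatment beyond its medium. The paper describes several lines derived in KSFM-Ca2+ medium, and each group is treated here as a single line. What separated the replicates is not stated in the sources used here. P-values therefore measure only the spread between these libraries, which may be technical. The medium, its calcium and the adaptation cannot be told apart.

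Cells commit to division in G1, when cyclin D with CDK4 or CDK6, and then cyclin E with CDK2, phosphorylate the retinoblastoma proteins and thereby free E2F transcription factors to switch on the genes of DNA synthesis. INK4 proteins block CDK4 and CDK6, CIP/KIP proteins act mainly on CDK2 complexes, and p53 feeds into the same step by inducing the CIP/KIP protein p21. In keratinocytes these inhibitors are known for their parts in withdrawal from the cycle during differentiation and in the senescence that ends most cultures.

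The deposited values are the mean read coverage per base of each gene, so levels are compared between genes on a per-length scale. The length used for each gene is not given in the sources used here, so comparisons of level between genes are only approximate. Over all genes, coverage added up to 1601676, 1238411 and 1057750 in KSFM-Ca2+ replicates 1 to 3, and 1174348, 1239438 and 1170675 in DKSFM replicates 1 to 3. Reads per gene were not used, so no counting interval is given. All 9 keratinocyte markers were present in both lines, led by *Krt14*. Their summed normalized coverage was 21014, 21356 and 20998 in the KSFM-Ca2+ libraries and 50166, 46393 and 50629.7 in the DKSFM libraries. These sums rest mainly on *Krt14* (means of 11975 in KSFM-Ca2+ and 29719 in DKSFM cells) and *Krt5* (4684 and 11148). The median log2 fold change (DKSFM over KSFM-Ca2+) of the 9 markers was 0.37, and *Itgb4* was lower in DKSFM cells (-0.74). Of 8 fibroblast markers, the 7 that include *Col1a1*, *Col3a1* and *Dcn* were listed at 0 in every library, and *Pdgfra*, the remaining gene, was at 1.14, 0.890 and 1.30 against 2.34, 2.10 and 2.23. The collagen genes that define fibroblasts were thus at 0. Among 7 melanocyte markers *Dct* and *Tyr* were at 0 throughout, *Mitf* was the most abundant, and the sum was 4.12, 3.96 and 4.60 in KSFM-Ca2+ cells against 17.3, 18.8 and 18.3 in DKSFM cells. Of 7 immune markers *Cd3e* and *Itgax* were at 0 throughout, and the sum was 1.30, 1.58 and 2.01, mostly *Cd74*, in KSFM-Ca2+ cells against 0, 0.300 and 0 in DKSFM cells, where *Cd74* was at 0. Of 4 endothelial markers *Cdh5* was at 0 throughout, and the sum, mostly *Pecam1*, was 2.82, 3.16 and 3.30 against 8.28, 8.29 and 7.42. In each of these 4 lists only the leading gene exceeded a coverage of 1 in any library. The part of these low signals in the results was not tested.

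DKSFM cells had more transcript of 5 inhibitor genes and less of the p53 and Rb genes. *Cdkn2a*, *Cdkn1b*, *Cdkn2b*, *Cdkn2c* and *Cdkn1a* were higher in DKSFM cells, in decreasing order of fold change, while *Rbl1*, *Trp53*, *Rb1*, *Cdkn2d* and *Mdm2* were lower. Genes were called at an adjusted p below 0.01 (limma, Benjamini-Hochberg over the 12409 tested genes). Thus 5 of 10 genes were called higher in DKSFM cells, where 35.5% of all tested genes were, and 5 of 10 were called lower, where 37.1% were. With a fold change of at least 2 in addition, 2 genes were higher (*Cdkn2a* and *Cdkn1b*) against 13.2% of tested genes, and 1 was lower (*Rbl1*) against 10.5%. The intervals of *Cdkn1b*, *Cdkn2b* and *Rbl1* all span a 2-fold difference. All 10 were called in either direction against 72.6% of tested genes, and in all 10 the libraries of the lines did not overlap, as in 83.3% of tested genes. A call by itself is thus common in this comparison. The median log2 fold change (DKSFM over KSFM-Ca2+) was -0.03 for the 10 genes and -0.00 for all tested genes, and the median absolute log2 fold change was 0.70 against 0.49. In bulk RNA a change in the share of cells that express a gene and a change in RNA per cell cannot be told apart, and this applies to every difference given here.

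**Figure D1:**
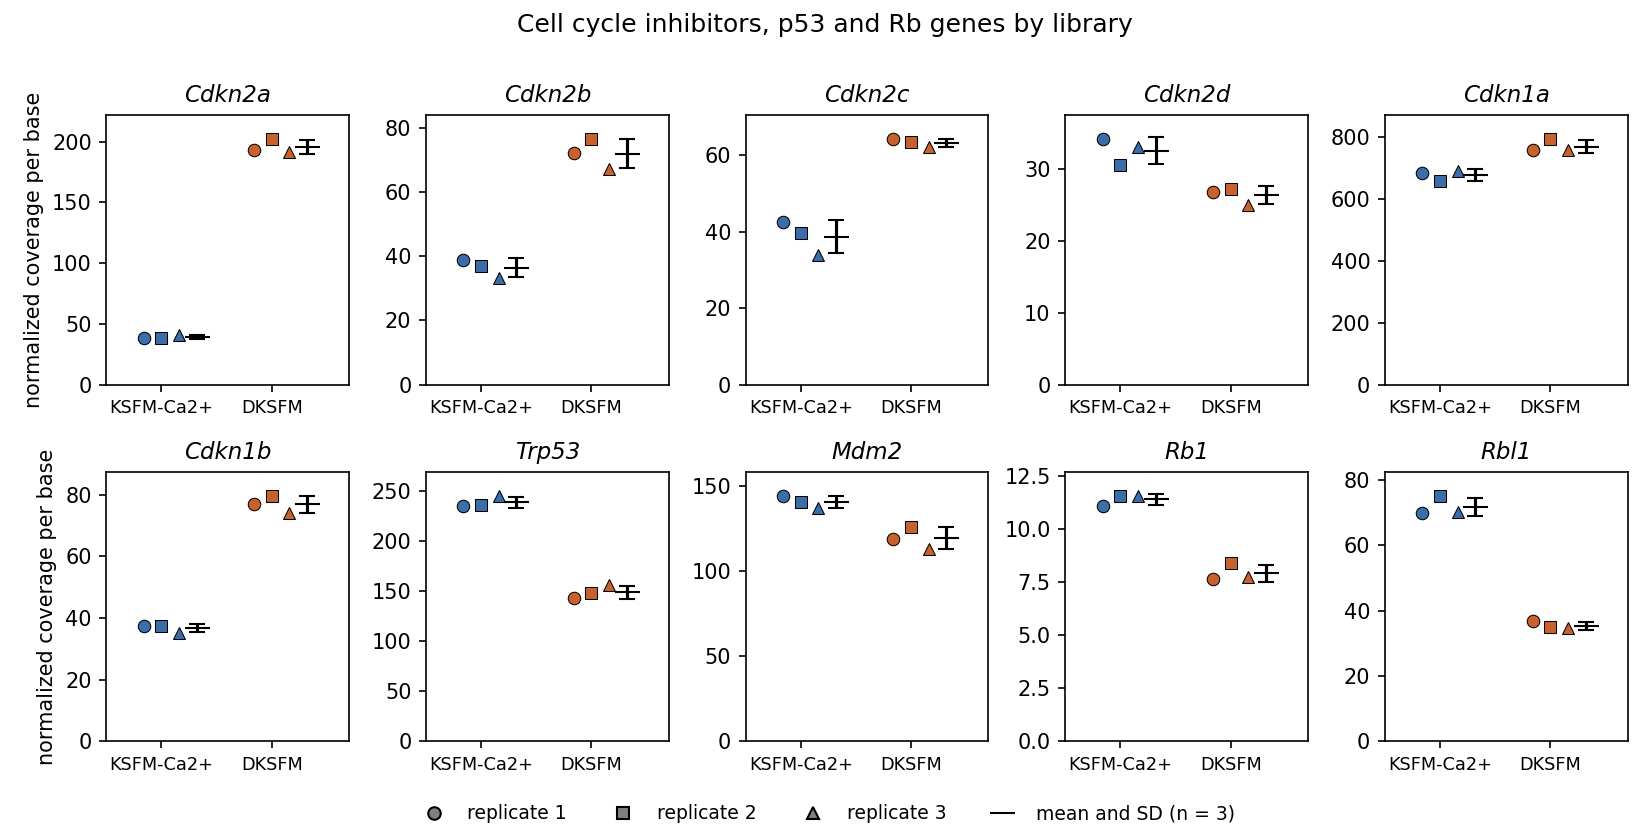
Normalized coverage per base (vertical axes, each starting at 0) of the 10 genes in 3 KSFM-Ca2+ and 3 DKSFM libraries; symbols are libraries, and bars give the mean and SD (n = 3). The DKSFM libraries lie above all KSFM-Ca2+ libraries for *Cdkn2a*, *Cdkn2b*, *Cdkn2c*, *Cdkn1a* and *Cdkn1b* and below them for the other 5 genes.

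*Cdkn2a* encodes p16INK4a, which binds CDK4 and CDK6, and from another reading frame p19ARF, which holds Mdm2 away from p53. Its normalized coverage was 38.1, 38.4 and 40.7 in the KSFM-Ca2+ libraries and 193, 202 and 192 in the DKSFM libraries. The DKSFM libraries were all high and far apart from the KSFM-Ca2+ libraries, with little spread in either line. The means were 39.1 ± 1.43 and 195 ± 5.64 (SD, n = 3 each), a 4.99-fold higher level in DKSFM cells (log2 fold change 2.32, 95% interval 2.23 to 2.41, adjusted p = 1.61e-09). The size of this difference exceeded that of 91.5% of tested genes. In level, *Cdkn2a* passed 60.7% of tested genes in KSFM-Ca2+ cells and 90.6% in DKSFM cells.

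The coverage of *Cdkn2a* is a single value for both of its products. In the GENCODE M21 annotation (GRCm38, mm10) the gene lies at chr4:89274471-89294653 on the minus strand and has 2 transcripts. The p16INK4a transcript begins with an exon of 207 bases at chr4:89281986-89282192, and the p19ARF transcript with an exon of 320 bases at chr4:89294334-89294653. Both continue into the same exon 2 and into an exon 3 that ends later in the p16INK4a transcript. The 575 bases that they share make up 67.5% of the p16INK4a transcript and 64.2% of the p19ARF transcript. Which of them accounts for the higher coverage cannot be told apart from values per gene. The start regions of both transcripts are shown because the coverage includes both, and the p16INK4a primers of the study are shown because they separate the products where the coverage does not. The promoter sequences are from RefSeq (GRCm38.p6, mm10), read 5′ to 3′ on the minus strand up to the annotated exon, and capitals mark letters of an E2F motif. The E2F search used the words TTTCGCGC, TTTGGCGC, TTTCCCGC and TTTGCCGC on both strands. In the primers, written wholly in capitals, every base matched the transcript, those of the reverse primer as the reverse complement.
p16INK4a start, chr4:89282193-89282442: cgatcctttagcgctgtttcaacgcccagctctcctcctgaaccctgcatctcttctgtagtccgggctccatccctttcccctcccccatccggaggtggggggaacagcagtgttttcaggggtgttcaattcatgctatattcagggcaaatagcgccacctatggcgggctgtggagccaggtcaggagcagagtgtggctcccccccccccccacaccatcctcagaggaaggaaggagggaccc
p19ARF start, chr4:89294654-89294869: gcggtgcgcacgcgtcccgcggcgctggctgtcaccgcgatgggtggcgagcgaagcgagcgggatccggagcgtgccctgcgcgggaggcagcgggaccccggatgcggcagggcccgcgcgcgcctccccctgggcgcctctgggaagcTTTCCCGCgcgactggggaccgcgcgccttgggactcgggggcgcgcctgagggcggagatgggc
p16INK4a forward primer: AATCTCCGCGAGGAAAGC
p16INK4a reverse primer: GTCTGCAGCGGACTCCAT
Each primer has 18 bases and matched 1 mouse transcript, that of p16INK4a, at bases 36 to 53 and 82 to 99, inside its own exon 1. The paper gives p16INK4a qPCR for primary keratinocytes, KSFM-Ca2+ cells and embryonic fibroblasts, and none for the adapted DKSFM cells. The p16INK4a start region lies in the intron of the p19ARF transcript. The p19ARF region holds TTTCCCGC at chr4:89294711-89294718, and the p16INK4a region holds none of the 4 words. Among 32851 mouse promoters of 300 bases in the same table, 744 (2.26%) hold at least 1 of these words, and a match is given only as a description.

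*Cdkn2b* lies next to *Cdkn2a* at chr4:89306299-89311039 and encodes p15INK4b, an INK4 protein induced by TGF-beta in epithelial cells. Its coverage was 38.9, 37.0 and 33.2 in the KSFM-Ca2+ libraries against 72.0, 76.3 and 67.2 in the DKSFM libraries. All DKSFM libraries were high and the lines did not overlap. The mean went from 36.3 ± 2.91 to 71.8 ± 4.57 (log2 fold change 0.98, 95% interval 0.82 to 1.14, adjusted p = 3.06e-06), that is 1.98-fold. The neighbours thus began at nearly equal levels in KSFM-Ca2+ cells, with a ratio of *Cdkn2a* to *Cdkn2b* of 1.08 ± 0.130, and stood at a ratio of 2.72 ± 0.111 in DKSFM cells.

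*Cdkn2c* encodes p18INK4c, which also binds CDK6 and CDK4. Its coverage was 42.5, 39.7 and 34.0 in the KSFM-Ca2+ libraries and 64.2, 63.7 and 62.1 in the DKSFM libraries. The KSFM-Ca2+ libraries were the more scattered but all stayed below the DKSFM libraries. The log2 fold change was 0.71 (95% interval 0.54 to 0.89, adjusted p = 3.87e-05), a 1.64-fold higher level. *Cdkn2d*, for p19INK4d, went the other way. It was at 34.1, 30.6 and 33.0 in KSFM-Ca2+ cells and 26.9, 27.3 and 25.02 in DKSFM cells. All DKSFM libraries were lower without overlap, and the log2 fold change was -0.30 (95% interval -0.43 to -0.17, adjusted p = 0.00126), or 1.23-fold lower.

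The summed coverage of the 4 INK4 genes was 154, 146 and 141 in the KSFM-Ca2+ libraries and 356, 369 and 346 in the DKSFM libraries. The sum includes the p19ARF transcripts of *Cdkn2a*. It was 2.43-fold higher in DKSFM cells (146.7 ± 6.46 against 357 ± 11.7, SD, n = 3), and *Cdkn2a* made up 26.7% ± 2.07 of it in KSFM-Ca2+ cells and 54.7% ± 0.610 in DKSFM cells. The targets of these proteins did not pass the threshold: *Cdk4* was at 516 ± 20.6 and 511 ± 13.9 (log2 fold change -0.01, adjusted p = 0.746), and *Cdk6* at 15.1 ± 1.23 and 16.9 ± 1.03 (0.16, adjusted p = 0.0885). The ratio of INK4 to *Cdk4* plus *Cdk6* coverage was 0.290, 0.285 and 0.254 in the KSFM-Ca2+ libraries and 0.657, 0.699 and 0.673 in the DKSFM libraries. INK4 coverage was below that of the kinases in every library, by a smaller margin in DKSFM cells. These sums and ratios are descriptions and were not tested.

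**Figure D2:**
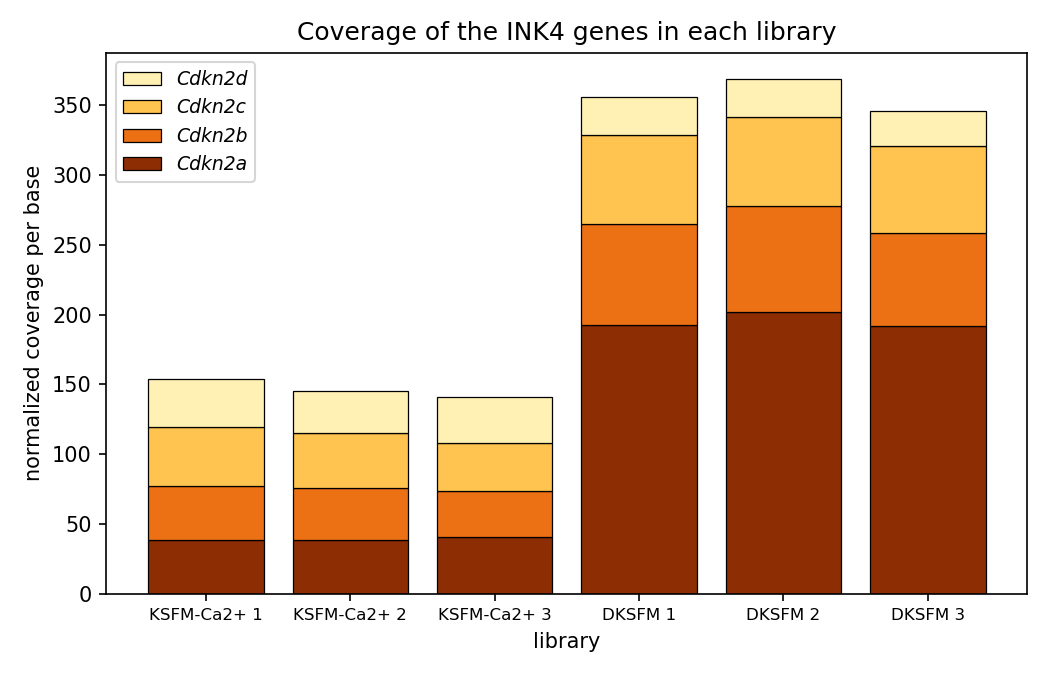
Stacked normalized coverage per base (vertical axis) of *Cdkn2a*, *Cdkn2b*, *Cdkn2c* and *Cdkn2d* in each of the 6 libraries (horizontal axis). The *Cdkn2a* segment grows from 26.7% ± 2.07 of the stack in KSFM-Ca2+ libraries to more than all other segments together, 54.7% ± 0.610, in DKSFM libraries.

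Genes known to act on the INK4-ARF locus were examined beside it. The locus is silenced by Polycomb complexes and T-box repressors and activated by factors such as Ets proteins. Of 19 listed regulators 18 were tested, 10 were called higher in DKSFM cells and 4 lower, where 35.5% and 37.1% of all tested genes were, and the median log2 fold change was 0.22 against -0.00 for all tested genes. None reached a 2-fold difference, and 7 were called higher with only the libraries marked as combined. Of the 10 higher calls, 3 were lost without some single libraries. The higher ones with the largest changes were *Cbx7* (5.53 ± 0.424 to 10.3 ± 0.569, log2 fold change 0.88), a Polycomb repressive complex 1 subunit, *Kdm2b* (20.2 ± 1.44 to 37.0 ± 1.20, 0.88), a histone demethylase that recruits such a complex, and *Tbx3* (4.41 ± 0.318 to 6.77 ± 0.771, 0.60), a T-box repressor of the locus. The lower ones with the largest changes were *Suz12* (122 ± 1.44 to 73.5 ± 3.01, -0.73), a core subunit of Polycomb repressive complex 2, *Rnf2* (163 ± 2.55 to 102 ± 4.30, -0.68), the ubiquitin ligase of complex 1, and the bHLH factor gene *Twist1* (17.6 ± 0.620 to 12.1 ± 0.826, -0.53). Polycomb subunits were thus found in both directions.

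*Cdkn1a* encodes p21, the CIP/KIP inhibitor that p53 induces, and was the most abundant of the 10 genes in both lines. The promoter of another listed start of the gene, at chr17:29093519-29093818, holds no p53 motif. The promoter shown was chosen because it holds such a motif and *Trp53* is among the genes examined. The sequence is from RefSeq (GRCm38.p6, mm10), plus strand, 5′ to 3′, and capitals mark 2 adjacent p53 decamers at chr17:29090928-29090947.
Cdkn1a start, chr17:29090729-29090975: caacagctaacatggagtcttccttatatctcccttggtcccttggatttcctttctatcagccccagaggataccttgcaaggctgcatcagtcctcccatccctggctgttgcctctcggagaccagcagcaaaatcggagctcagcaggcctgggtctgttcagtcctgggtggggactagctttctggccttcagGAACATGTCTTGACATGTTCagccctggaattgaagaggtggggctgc
The p53 motif was searched by its consensus as 2 adjacent decamers with at most 1 mismatch in 20 bases. It occurs in 29 of 32851 promoters of the table (0.0883%), and among the 12 promoters listed for 9 of the 10 genes in this 1 only. It overlaps none of the E2F words. A match says nothing about binding in these cells.

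*Cdkn1a* coverage was 683, 655 and 689 in the KSFM-Ca2+ libraries and 756, 791 and 756 in the DKSFM libraries. The DKSFM libraries were all higher, by a small margin relative to the level. The means of 676 ± 18.2 and 767 ± 20.3 gave a log2 fold change of 0.18 (95% interval 0.11 to 0.26, adjusted p = 0.000747), or 1.14-fold. Only 21.2% of tested genes had a smaller change, while 97.7% and 98.1% of them had a lower level in the respective lines. With only the libraries marked as combined in the deposited names (KSFM-Ca2+ replicate 3 and all DKSFM replicates), the call was lost (log2 fold change 0.15, adjusted p = 0.0178, over all alternatives 3.03e-05 to 0.0178).

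*Cdkn1b* encodes p27, which restrains cyclin E with CDK2 and accumulates in resting cells. Its coverage was 37.4, 37.5 and 35.3 in the KSFM-Ca2+ libraries and 76.9, 79.5 and 74.2 in the DKSFM libraries. Every DKSFM library had about double the level of any KSFM-Ca2+ library. The log2 fold change was 1.06 (95% interval 0.97 to 1.16, adjusted p = 1.16e-07), that is 2.09-fold from 36.7 ± 1.25 to 76.9 ± 2.67. Because *Cdkn1a* was so much more abundant, it still made up 94.8% ± 0.273 of the CIP/KIP coverage in KSFM-Ca2+ cells and 90.9% ± 0.149 in DKSFM cells. The third CIP/KIP gene, *Cdkn1c* (p57), was listed at 0 in 4 libraries, did not exceed 0.106 in the others and was not tested.

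The p27 protein is degraded after ubiquitination by the SCF-Skp2 ligase, which the transcript level does not show. Of its 6 genes, 1 was called higher and 2 lower (35.5% and 37.1% of all tested genes), with 2 higher under relative log expression scaling or without KSFM-Ca2+ replicate 3, and 3 under quantile normalization. *Cul1* was called higher in DKSFM cells (192 ± 2.83 to 297 ± 4.11, log2 fold change 0.63), and *Rbx1* (141 ± 1.55 to 105 ± 3.98, -0.43) and *Cks1b* (284 ± 11.6 to 243 ± 6.74, -0.22) were called lower. *Skp2*, the subunit that recognises p27, was at 21.6 ± 2.81 and 19.9 ± 3.09 (log2 fold change -0.13, adjusted p = 0.383). The median of the 6 genes was -0.02.

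**Figure D3:**
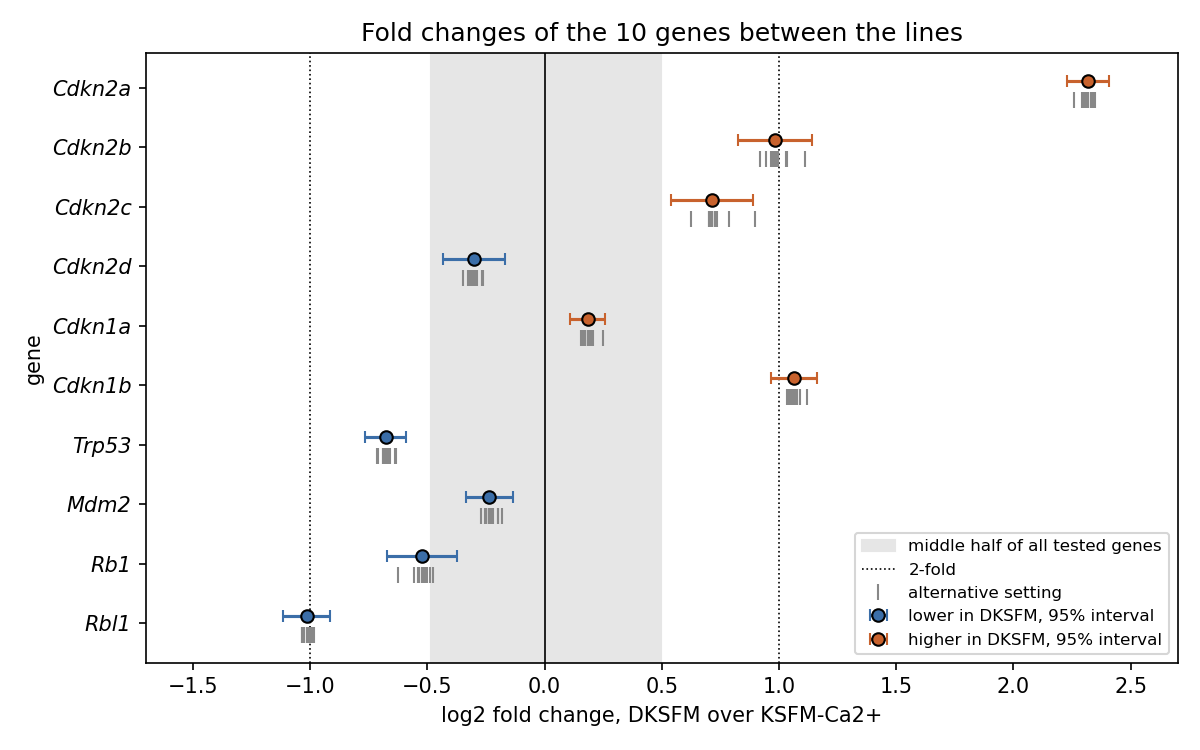
Log2 fold change (DKSFM over KSFM-Ca2+, horizontal axis) of each gene with its 95% interval; grey marks are the same value under each of 16 alternative settings, dotted lines are 2-fold, and the grey band holds the central 50% of all tested genes. *Cdkn2a* (2.32) lies far to the right, *Cdkn1a*, *Mdm2* and *Cdkn2d* lie within the band, and no mark changes side.

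*Trp53* encodes p53, the transcription factor that halts the cycle or triggers death after DNA damage and other stress. Its coverage was 234, 236 and 245 in the KSFM-Ca2+ libraries and 143, 148 and 156 in the DKSFM libraries. All DKSFM libraries were low, and the lines were well apart. The means of 238 ± 5.48 and 149 ± 6.56 gave a log2 fold change of -0.68 (95% interval -0.77 to -0.59, adjusted p = 8.04e-07), or 1.60-fold lower. *Mdm2* encodes the ubiquitin ligase that degrades p53 and is itself a p53 target. It was at 144, 140.3 and 137 in KSFM-Ca2+ cells and at 119, 126 and 113 in DKSFM cells. The DKSFM libraries were again all lower, though by less (log2 fold change -0.24, 95% interval -0.34 to -0.14, adjusted p = 0.00110, 1.18-fold). With only the libraries marked as combined, this call too was lost (log2 fold change -0.20, adjusted p = 0.0316, over all alternatives 0.000624 to 0.0316). The ratio of *Mdm2* to *Trp53* coverage was 0.613, 0.595 and 0.560 in the KSFM-Ca2+ libraries and 0.831, 0.850 and 0.726 in the DKSFM libraries. It was higher in every DKSFM library, and was not tested.

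Genes of the same families outside the 10 were examined next. *Mdm4*, whose product binds and inhibits p53, was at 112 ± 7.32 and 117 ± 5.57 (log2 fold change 0.06, adjusted p = 0.329). *Trp63*, the p53 relative that maintains basal keratinocytes, was slightly higher in DKSFM cells (404 ± 12.2 to 443 ± 12.6, log2 fold change 0.13, adjusted p = 0.00658) and exceeded *Trp53* in both lines. *Trp73*, for p73, was at 0.0762, 0.297 and 0.118 in the KSFM-Ca2+ libraries, close to the rounding step of 0.1 in the files, but reached 23.0, 22.5 and 23.3 in DKSFM libraries. It was thus almost undetected in KSFM-Ca2+ cells and well above that step in DKSFM cells. It passed the filter through the DKSFM libraries alone, so its p-value is not given as support. The call of *Trp63* was lost under 9 of 16 alternatives, among them those without DKSFM replicate 2 or 3 or without any 1 KSFM-Ca2+ library (adjusted p up to 0.0266), so its difference is uncertain. *Cdkn3*, a phosphatase of CDK2, was lower in DKSFM cells (58.3 ± 4.24 to 45.1 ± 2.15, log2 fold change -0.37), and its call was lost with only the combined libraries (-0.27, adjusted p = 0.0105).

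Of 16 genes that regulate p53, 6 were called higher and 7 lower (35.5% and 37.1% of all tested genes), with a median of -0.12 on the log2 scale. With only the libraries marked as combined, 4 were called higher and 5 lower. *Cop1*, 1 of the 7 lower genes (14.8 ± 0.326 to 12.9 ± 0.183, -0.20), lost its call under 8 of 16 alternatives, among them those without any 1 library (adjusted p up to 0.0542). The damage kinases were lower in DKSFM cells: *Chek1* (17.5 ± 1.23 to 7.90 ± 0.801, log2 fold change -1.14), *Atm* (6.85 ± 0.231 to 3.57 ± 0.0633, -0.92) and *Atr* (9.87 ± 0.103 to 6.48 ± 0.459, -0.60). *Ppm1d*, the phosphatase that reverses their phosphorylation of p53, was higher (10.4 ± 0.507 to 18.98 ± 0.741, 0.86), as were the deubiquitinase gene *Usp7* (39.2 ± 0.311 to 64.6 ± 1.03, 0.72) and the acetyltransferase gene *Crebbp* (3.16 ± 0.279 to 4.81 ± 0.220, 0.59). The call of *Crebbp* was lost with only the combined libraries (0.48, adjusted p = 0.0163).

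Of 28 known p53 target genes, 10 were called higher in DKSFM cells and 10 lower, and the median log2 fold change was 0.03. These shares are near those of all tested genes (35.5% and 37.1%). Higher were *Sesn1* (16.2 ± 2.56 to 194 ± 4.99, log2 fold change 3.59), a stress-induced sestrin, *Perp* (1516 ± 35.1 to 4667 ± 95.8, 1.62), a desmosomal protein that p63 also induces, and *Cd82* (10.2 ± 1.98 to 22.8 ± 2.14, 1.17), a tetraspanin. Lower were the stress cytokine gene *Gdf15* (1.32 ± 0.416 to 0.279 ± 0.126, -1.91), *Rrm2b* (27.8 ± 0.818 to 10.8 ± 0.824, -1.36), a ribonucleotide reductase subunit, and *Gadd45a* (60.5 ± 4.89 to 30.4 ± 3.22, -0.99), a growth arrest gene. *Ccng1*, for cyclin G1, was slightly lower (325 ± 4.05 to 275 ± 6.20, -0.24). *Gdf15* was close to the rounding step in DKSFM cells, where its fold change is the less precise, and it is 1 of the 10 lower genes although it passed the filter through the KSFM-Ca2+ libraries alone.

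*Rb1* encodes pRb, the retinoblastoma protein, and was the least abundant of the 10 genes in both lines. Its coverage was 11.1, 11.6 and 11.6 in the KSFM-Ca2+ libraries and 7.64, 8.39 and 7.74 in the DKSFM libraries. All DKSFM libraries were lower (log2 fold change -0.52, 95% interval -0.67 to -0.37, adjusted p = 0.000102, 1.44-fold). *Rcbtb2* and *Lpar6* overlap *Rb1* on the opposite strand, and both were also lower. *Rcbtb2* went from 23.1 ± 1.15 to 11.98 ± 0.358 (log2 fold change -0.94), and the log2 fold change of *Lpar6* was -1.34. Whether the coverage was computed by strand is not given in the sources used here, so the value of *Rb1* is uncertain to that extent.

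*Rbl1* encodes p107, a retinoblastoma protein that is itself an E2F target and is most abundant in cycling cells. Its promoter is shown because it holds an E2F word and E2F target genes are among the lists examined. The sequence is from RefSeq (GRCm38.p6, mm10), minus strand, 5′ to 3′, with an E2F word in capitals at chr2:157204545-157204552.
Rbl1 start, chr2:157204535-157204784: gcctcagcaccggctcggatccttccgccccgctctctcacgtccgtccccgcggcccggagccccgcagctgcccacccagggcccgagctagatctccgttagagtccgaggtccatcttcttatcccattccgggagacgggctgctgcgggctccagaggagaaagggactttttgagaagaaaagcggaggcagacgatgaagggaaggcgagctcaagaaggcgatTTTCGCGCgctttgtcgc
The same search found E2F words in 2 of the 12 promoters, this one and that of p19ARF. A match says nothing about binding in these cells, and the part of E2F in the *Rbl1* difference was not tested.

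*Rbl1* coverage was 69.8, 75.1 and 70.3 in the KSFM-Ca2+ libraries and 36.8, 34.9 and 34.6 in the DKSFM libraries. Each DKSFM library had close to 50% of the KSFM-Ca2+ level. The means of 71.7 ± 2.89 and 35.4 ± 1.24 gave a log2 fold change of -1.02 (95% interval -1.12 to -0.91, adjusted p = 1.89e-07), or 2.02-fold lower. The ratio of *Rbl1* to *Rb1* accordingly went from 6.28 ± 0.203 to 4.48 ± 0.333. *Rbl2*, for p130, the retinoblastoma protein of resting cells, did not pass the threshold (40.5 ± 0.769 and 39.9 ± 2.20, log2 fold change -0.03, adjusted p = 0.646). In KSFM-Ca2+ cells *Rbl1* thus stood above *Rbl2*, and in DKSFM cells below it.

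Of 16 E2F target genes of S phase, 15 were called lower in DKSFM cells, where 37.1% of all tested genes were, and 9 at least 2-fold lower, where 10.5% were. The median was -1.06 (log2) against -0.00 for all tested genes. *Mcm3* (112 ± 3.99 to 39.8 ± 1.92, log2 fold change -1.50), a subunit of the replicative helicase, *Cdc6* (33.3 ± 1.08 to 12.6 ± 1.42, -1.40), which loads that helicase, and *Tyms* (91.2 ± 5.01 to 34.5 ± 1.43, -1.40), which makes thymidylate, fell the most. *Pcna*, the sliding clamp of DNA polymerase, fell from 382 ± 11.2 to 163 ± 4.34 (-1.22). The exception was *Rrm1*, the large subunit of ribonucleotide reductase, which rose from 212 ± 4.29 to 291 ± 3.34 (0.46).

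Of the 10 E2F and DP genes, 5 were called lower in DKSFM cells and 2 higher (37.1% and 35.5% of all tested genes), with a median of -0.19. *E2f7*, a repressor (16.6 ± 0.540 to 7.25 ± 0.398, log2 fold change -1.19), *E2f4* (95.5 ± 4.05 to 49.999 ± 0.152, -0.93), which pairs with p107 and p130, and the partner gene *Tfdp1* (688 ± 9.63 to 428 ± 2.84, -0.68) were lower. *E2f1*, an activator, was lower by less (67.2 ± 3.04 to 53.6 ± 0.811, -0.32). Another activator, *E2f2*, was higher: it was at 0.915, 0.396 and 0.472 in the KSFM-Ca2+ libraries but at 9.13, 9.09 and 10.8 in DKSFM ones, which carried it past the filter. It is 1 of the 2 higher genes although the DKSFM libraries alone were enough for it to be tested, so its call is not given as support. *Tfdp2* was also higher (31.7 ± 2.93 to 57.4 ± 2.84, 0.86). The MuvB core joins p107 or p130 to repress cell cycle genes and B-Myb to activate them. Of 6 genes, the 5 of the core and *Mybl2* for B-Myb, 4 were lower and 1 higher (37.1% and 35.5% of all tested genes). Their median was -0.40. Of the 5 core genes 3 were lower, namely *Lin9* (27.2 ± 2.18 to 15.3 ± 1.11, -0.83), *Lin54* (92.8 ± 2.09 to 64.3 ± 3.77, -0.53) and *Rbbp4*. The call of *Rbbp4* (60.0 ± 1.85 to 54.6 ± 1.05, -0.14) was lost under 10 of 16 alternatives, among them those without any 1 library other than KSFM-Ca2+ replicate 1 (adjusted p up to 0.0436). *Lin37*, the higher one, is known to be needed for that repression (20.4 ± 0.770 to 51.7 ± 1.35, 1.34), and *Mybl2*, which replaces p107 and p130 on the complex in cycling cells, was lower (28.8 ± 0.340 to 16.2 ± 0.0757, -0.83).

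Among 10 genes of G1, namely cyclins, CDKs and the phosphatase gene *Cdc25a*, 6 were called lower and 2 higher in DKSFM cells (37.1% and 35.5% of all tested genes), and the median was -0.23. *Cdc25a* is 1 of the 6 (15.6 ± 0.816 to 13.4 ± 0.450, -0.22, adjusted p = 0.00962), but its call was lost under 10 of 16 alternatives, among them those without any 1 library (adjusted p up to 0.129). *Ccnd1* was the most abundant D cyclin gene in KSFM-Ca2+ cells and the least abundant in DKSFM cells. It fell from 759 ± 10.6 to 175 ± 6.17 (log2 fold change -2.12, adjusted p = 1.08e-09), while *Ccnd2* rose from 91.4 ± 4.39 to 266 ± 14.1 (1.54, adjusted p = 3.84e-08) and *Ccnd3* from 258 ± 10.99 to 529 ± 5.73 (1.04, adjusted p = 4.92e-08). *Ccna2*, the cyclin of S phase and an E2F target, fell from 114 ± 0.863 to 53.2 ± 1.05 (-1.09), and *Cdk2*, the kinase that p21 and p27 block, from 57.1 ± 0.648 to 48.6 ± 1.21 (-0.23).

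**Figure D4:**
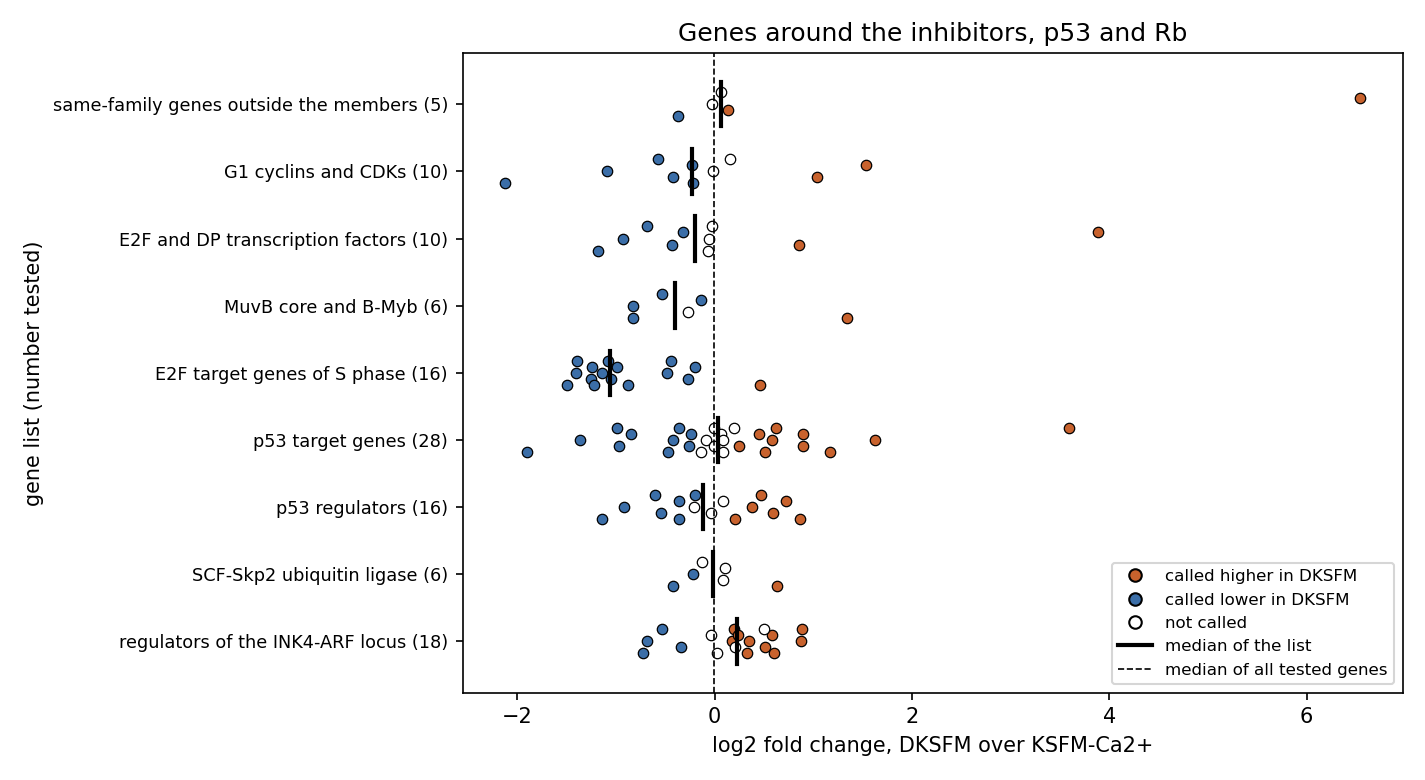
Log2 fold change (DKSFM over KSFM-Ca2+, horizontal axis) of each tested gene in the lists of related genes (vertical axis, number tested in brackets); filled points were called at an adjusted p below 0.01, thick bars are list medians, and the dashed line is the median of all tested genes. The E2F target genes of S phase lie to the left, with a median of -1.06, while the p53 target genes spread to both sides of a median of 0.03.

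The order of levels differed between the lines. In KSFM-Ca2+ cells it was *Cdkn1a*, *Trp53*, *Mdm2* and *Rbl1*, then *Cdkn2a*, *Cdkn2c*, *Cdkn1b*, *Cdkn2b* and *Cdkn2d*, whose library ranges overlapped from each gene to the next, and last *Rb1*. In DKSFM cells *Cdkn2a* had moved up to the second place, above *Trp53* and *Mdm2*. After *Trp53* and *Mdm2* came *Cdkn1b* and *Cdkn2b*, whose ranges overlapped, and then *Cdkn2c*, *Rbl1*, *Cdkn2d* and *Rb1*, whose ranges did not. The 5 inhibitors that were close together in KSFM-Ca2+ cells thus spread out in DKSFM cells, from 195 for *Cdkn2a* to 26.4 for *Cdkn2d*.

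The 20 nearest tested genes around each member, 10 on each side, show whether the surrounding chromosome moved with it. *Cdkn2a* exceeded 19 of its 20 neighbours in log2 fold change, their median being 0.17 (-0.19 over 50 neighbours). *Mtap*, the gene next to it in the files on the side away from *Cdkn2b*, was slightly lower in DKSFM cells (85.8 ± 3.17 to 74.9 ± 2.65, log2 fold change -0.20, adjusted p = 0.00231). *Rbl1* was below all 20 of its neighbours, with a median of -0.00 (-0.08 over 50), and *Trp53* was above 3 of 20, with a median of -0.06 (-0.22 over 50). *Rb1* stood apart from this. Its own log2 fold change of -0.52 was near the median of its neighbours, -0.54 (-0.47 over 50). *Cdkn1b* also lay among neighbours that were mostly higher, with a median of 0.53 (0.31 over 50), about 50% of its own 1.06. *Cdkn2d* was near its neighbours too (-0.30 against a median of -0.23). *Mdm2*, at -0.24, ran against a neighbour median of 0.20 (0.21 over 50). The medians around *Cdkn2c*, *Cdkn2b* and *Cdkn1a* were 0.17, 0.15 and -0.07 (0.10, -0.16 and 0.11 over 50). For *Cdkn2b* and *Cdkn1a*, as for *Cdkn2a*, the sign of the median changed with the wider range. Some of the neighbours passed the filter through 1 line alone, so the values were also taken without every gene that was below the filter value in any library, a choice made after seeing the data. Of the 17 neighbours of *Rb1* then left, 11 were called lower and 2 higher, with a median of -0.47, and of the 16 of *Cdkn1b*, 10 were called higher and 2 lower, with a median of 0.53. Of all 11112 genes above that value in every library, 34.1% were called higher and 38.2% lower. *Cdkn2a* then exceeded 18 of 19 neighbours, *Rbl1* was below all 19 of its own, and *Trp53* was above 3 of 19. The part of gene dosage in these values was not tested.

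Beside *Cdkn1a*, the nearest gene on the centromeric side was *Trp53cor1*, a long noncoding RNA that p53 is known to induce. It was low in both lines, at 2.02 ± 0.226 in KSFM-Ca2+ cells and 0.416 ± 0.107 in DKSFM cells, opposite to *Cdkn1a*. *Rab44*, on the other side, was at the rounding step in KSFM-Ca2+ cells and low in DKSFM cells (0.0977 ± 0.0209 and 1.56 ± 0.245). Both were tested only because 1 line was above the filter, so no p-value is given for them. *Lockd*, a noncoding RNA gene beside *Cdkn1b*, was higher in DKSFM cells (32.2 ± 4.25 to 48.3 ± 0.672, 0.59), and *Wrap53*, which starts next to *Trp53* on the other strand, was lower (27.5 ± 2.66 to 19.99 ± 3.02, -0.46), each in the direction of the neighbour. *Kri1* beside *Cdkn2d* (33.1 ± 1.22 to 27.9 ± 0.688, -0.25) and *Samhd1* beside *Rbl1* (48.7 ± 0.517 to 43.4 ± 1.45, -0.17) were also lower. Against their neighbours ran *Ap1m2* beside *Cdkn2d* (145 ± 2.29 to 177 ± 1.37, 0.28), and *Cpm* (0.558 ± 0.0752 to 2.77 ± 0.211, 2.13) and *Slc35e3* (6.09 ± 0.218 to 8.33 ± 0.551, 0.44) on either side of *Mdm2*. In KSFM-Ca2+ cells *Cpm* was close to the filter value, which only 2 libraries of that line reached. *Faf1* beside *Cdkn2c* did not pass the threshold (0.15, adjusted p = 0.0170).

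**Figure D5:**
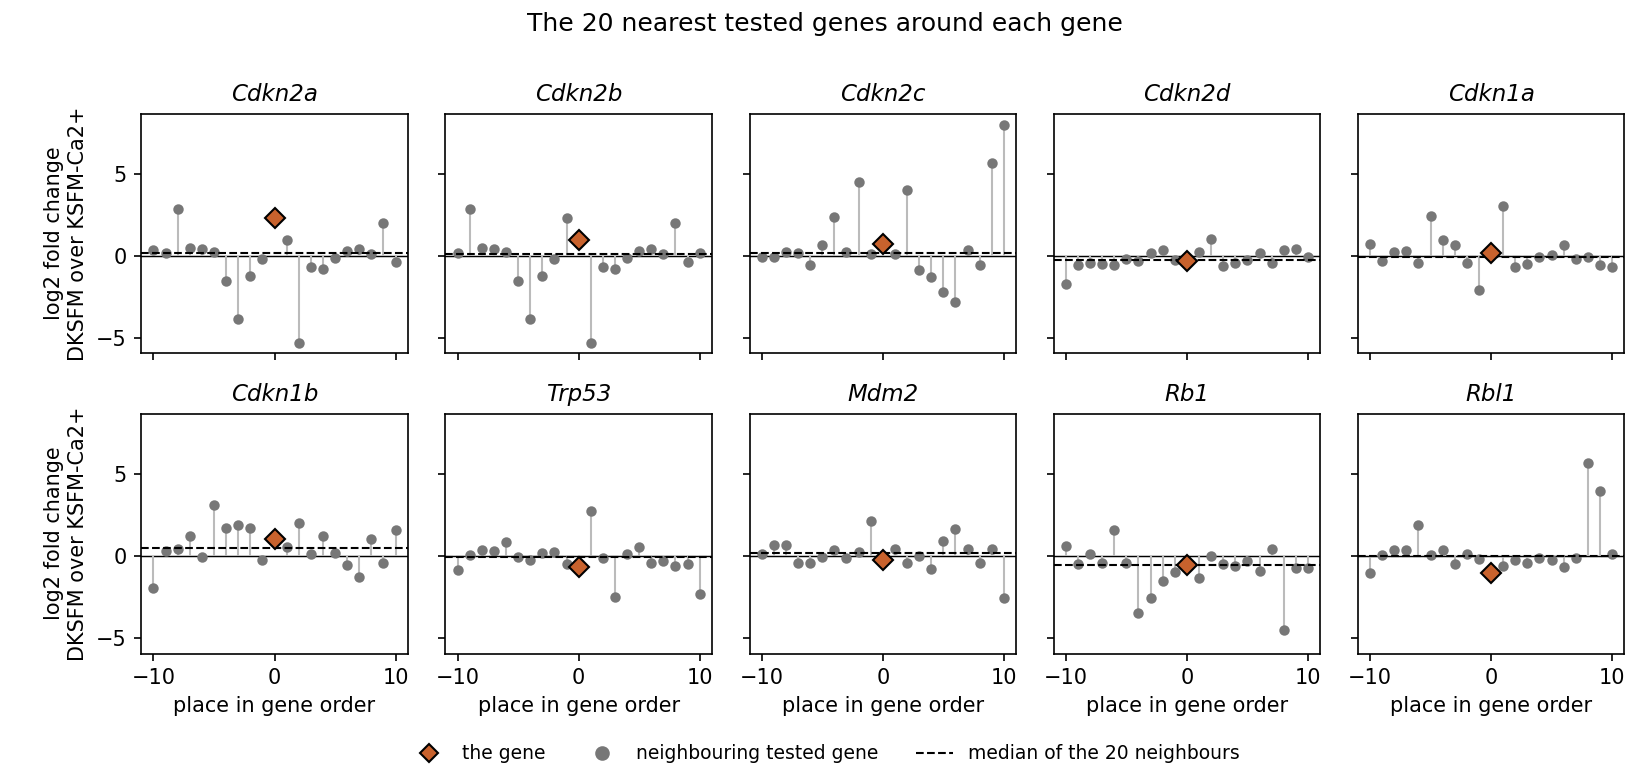
Log2 fold change (DKSFM over KSFM-Ca2+, vertical axes) of each gene (diamond) and of its 20 nearest tested neighbours (grey points) by place in gene order (horizontal axes); the dashed line is the median of the neighbours. *Cdkn2a* and *Rbl1* lie apart from that line, while *Rb1* lies on it (-0.52 against -0.54).

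The genes whose pattern over the 6 libraries was most like that of *Cdkn2a*, by the root mean square distance between centred log2 values, were *Clip4* (distance 0.0328), *P3h4* (0.0415) and *Icam1* (0.0457). *Clip4* was at 53.5, 52.6 and 55.8 in the KSFM-Ca2+ libraries against 261, 263 and 262 in DKSFM libraries.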

How the data were processed

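Total RNA of both lines was sequenced as directional poly(A) libraries. The authors aligned the reads to mm10 (RefSeq genes) with STAR under a first-strand setting and quantified them with Salmon, per the study's methods. The submitters' processing notes name bcl2fastq, STAR and DESeq2. In the deposited files the signal of a gene is its average coverage per base, rounded to 1 decimal and not scaled between libraries. How it was computed is not given in the sources used here. Because coverage is not a count, no count model was used.

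Libraries were scaled to each other with trimmed means of M values, unweighted (trims of 30% and 5%, factors from 0.991 to 1.01), filtered (at least 0.5 in at least 3 libraries, or 2 where a library was left out) and transformed as log2(normalized coverage + 0.1). Fold changes are on that scale, which understates the change of low genes. Models were fitted with limma 3.58.1 in R 4.3.3, with an intensity trend and no covariate, and adjusted by Benjamini-Hochberg over 12409 genes. The procedure was tested on simulated data, in which a far smaller share of genes differed than was called here. Annotation and figures used Python 3.11.15, pandas 2.3.3, numpy 2.4.6 and matplotlib 3.10.9. Positions came from GENCODE M21, where 24445 of 24982 symbols matched once, and promoters (250 bases before to 50 after each start) from RefSeq, listed for 9 of the 10 genes and not for *Rb1*.

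All 10 genes are named. From each list of related genes, up to 3 called genes per direction with the largest change were named, any gene of lists of up to 10, and the direct partners *Mdm4*, *Rbl2*, *Cdkn1c*, *Trp63*, *Ccnd1*, *Ccnd2*, *Ccnd3*, *Cdk4*, *Cdk6*, *Cdk2*, *E2f1*, *Pcna* and *Ccng1*. The nearest listed gene on each side of a member and the 3 genes most like *Cdkn2a* could also be named. *Lpar6* was named for its overlap with *Rb1*, and *Cop1* because its call depends on single libraries. Members, lists and tests were chosen with earlier results of these data known. The alternatives were other scalings, pseudocounts of 0.5 and 1, no filter or a filter on every library, no trend, a replicate block, each library left out, the libraries marked as combined only, and an adjusted p of 0.05. The qPCR, protein and culture experiments of the study were not analysed here.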

Additional observations from a re-analysis of the deposited data

How the results depend on the processing

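Each of the 10 genes kept its direction under all 16 alternatives, and 8 kept their call throughout. With only the libraries marked as combined, *Cdkn1a* (log2 fold change 0.15, adjusted p = 0.0178) and *Mdm2* (-0.20, adjusted p = 0.0316) missed the threshold, leaving 4 genes called higher and 4 lower. That setting has 1 KSFM-Ca2+ library, whose spread is assumed to be that of the DKSFM libraries. With 1 library left out in turn, 5 genes were called higher and 5 lower each time. *Cdkn2a* ranged from 2.26 to 2.35 over the alternatives, *Cdkn1b* from 1.04 to 1.12 and *Rbl1* from -1.03 to -0.98. The replicate block left 4264 of 12409 genes called higher and 4460 lower (4402 and 4606 without it) and all 10 genes called. Correlations of deviations between libraries of the lines lay between -0.04 and 0.04, so no pairing by replicate number was seen. With 3 libraries per line and the nature of the replicates not stated, this cannot exclude a pairing. In the SCF-Skp2 list, 2 genes were called higher under relative log expression scaling or without KSFM-Ca2+ replicate 3, and 3 under quantile normalization, where 1 was called otherwise. The calls of *Trp63*, *Rbbp4* and *Cdc25a* were lost under 9, 10 and 10 of 16 alternatives and depend on single libraries. With 1 library left out, 3 higher regulators of the INK4-ARF locus also lost their calls for some libraries, and the p53 regulator *Cop1* for every library. With only the combined libraries *Cdkn3* and *Crebbp* were not called, the called regulators of p53 went from 6 higher and 7 lower to 4 and 5, the higher regulators of the INK4-ARF locus from 10 to 7, the higher and lower p53 targets from 10 each to 9 each, where *Gdf15* was no longer tested, the lower S phase targets from 15 to 14, the lower G1 genes from 6 to 5 (also under relative log expression scaling) and the lower MuvB genes from 4 to 3 (also under relative log expression scaling and quantile normalization). Other changes under the scalings were of 1 gene per list. Neighbours that were below the filter value in any library were also left out, a choice made after seeing the data. The neighbour median was then 0.20 in place of 0.17 for *Cdkn2a* and -0.47 in place of -0.54 for *Rb1*. It was -0.10 in place of -0.00 for *Rbl1* and 0.14 in place of 0.20 for *Mdm2*. No scaling moved the median of all tested genes by 0.1. Coverage is rounded to 0.1, which limits values below about 1, and the depth in reads was not used.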
